A study of Mus musculus with 8 samples.

Results

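The 34 genes described here encode the path from glucose uptake to lactate and the pentose phosphate branch in the mouse: 3 glucose transporters, 3 genes of hexokinases and phosphoglucose isomerase, 5 of phosphofructokinases and the enzymes that set their activator, 4 from aldolase to glyceraldehyde phosphate, 7 of lower glycolysis, 4 of lactate, 3 pyruvate dehydrogenase kinases, 4 of the pentose phosphate branch, and Hif1a, a transcription factor that drives many of them. They were taken as a fixed list of names. All 34 of 34 were found among 21887 protein-coding genes of the annotation. They were followed through H3K27ac, the acetylation of histone H3 at lysine 27 that marks active promoters and enhancers. The cells were satellite cells, the stem cells of skeletal muscle, and came from C57BL/6 mice for which the labels name no genetic change. In the FISC group they were freshly isolated and the muscle had no treatment. In the ASC group the muscle had been injured with barium chloride (BaCl2) and the cells were taken 2.5 days later. Isolation itself is shared by both groups, and whether the libraries of a group came from separate animals is not given in the labels. Each group had 2 H3K27ac libraries and 2 input libraries, which were not analysed here. The p-values therefore measure only the spread between these libraries, which may be technical.

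Glycolysis splits glucose into pyruvate with a small yield of ATP, and the pentose phosphate branch draws off glucose phosphate to make NADPH and ribose for nucleotides. Quiescent satellite cells are known for low glucose use and for burning fatty acids, and activated, dividing satellite cells for higher glycolysis. Many enzymes exist as isozymes, of which 1 is typical of mature muscle fibres and another of most dividing cells. Under low oxygen Hif1a raises many of these genes, and Myc does so in growing cells.

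The measure was the number of kb under deposited peaks, called separately in each library. The ASC lists were longer, 49.2 and 57.7 Mb in 50154 and 54700 peaks, against 34.4 and 33.7 Mb in 45014 and 43092 peaks in FISC. In libraries made from many cells, a longer peak in each cell and a peak present in more cells cannot be told apart. Markers of 8 cell types were read at the gene ends. All 6 satellite cell markers, among them Pax7 and Myf5, were covered. Defining genes of other types were at 0 in all libraries (Pecam1 and Cdh5 of endothelium, Ptprc, Itgam and Lyz2 of myeloid cells, Pdgfra and Dcn of fibro-adipogenic cells, and Rgs5 and Kcnj8 of pericytes). All 4 endothelial markers summed to 0.614 and 0.971 kb in ASC and 1.33 and 1.64 kb in FISC, and the 4 of smooth muscle and pericytes to 0 and 0.275 kb against 1.15 and 0.929 kb, with Pdgfrb lower. The 10 myofibre markers summed to 11.5 and 13.6 kb in ASC and 9.25 and 9.90 kb in FISC, with Ckm, Myh4 and Pvalb at 0 in all libraries, Ttn and Tnnt3 higher in ASC, and Myh2 and Mb lower. The 4 fibro-adipogenic markers summed to 2.20 and 3.68 kb in ASC and 2.37 and 2.27 kb in FISC, with Ly6a higher in ASC (0 kb in FISC) and Dpt lower. The 5 myeloid markers summed to 1.87 and 3.85 kb in ASC and 1.55 and 1.05 kb in FISC, nearly all of it at Cd68. The part of these other cells in the results below was not tested.

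Cover was counted at the annotated start sites, which RefSeq gives with strand for 32 of the 34 genes (none for Slc2a3 and Slc2a4), within 2 kb on each side, so that a gene with 1 start can reach 4 kb. The windows overlap the ends of the gene in most cases, and cover within 2 kb of both gene ends was counted as well (up to 8 kb). Starts were covered in all 4 libraries at 29 of 32 genes and in no library at Aldoc and Pgam2. Of the 30 genes covered in at least 2 libraries, 15 were higher in ASC and 0 lower (limma, Benjamini-Hochberg adjusted p under 0.05 over 10294 genes), and 15 did not pass. Among all genes tested at their starts, 26.9% were called higher and 3.38% lower. The groups did not overlap, with ASC above, at 21 of the 30 (70.0%), against 62.4% of all genes tested, so more cover in ASC is the common case in these lists. The median difference was 0.506 kb over the 30 genes and 0.293 kb over all genes. At the gene ends 12 of 30 genes were higher and 1, Pdk2, was lower, against 26.5% and 3.61% of 12924 genes. The median differences there were 0.482 and 0.304 kb. These genes also had more cover in FISC, with medians of 1.62 and 1.62 kb at the starts against 1.34 and 1.315 kb of all genes. At the ends the FISC medians were 1.43 and 1.57 kb against 1.32 and 1.29 kb.

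These counts depend on how the lists are scaled. With lists cut to equal covered length 10 of 29 genes tested were higher and 3 lower at the starts, and 9 of the 15 calls were kept. Among all 9746 genes tested with those lists, 1658 were higher and 1196 lower. When each value was divided by its library's total covered length, the median difference of all genes at the starts moved from 0.293 to -0.370 kb. Then 2 of the 15 genes (Pgk1 and Eno3) stayed higher, and 11 of the 30 genes tested were called lower. Among all 10294 genes, 738 were then higher and 4076 lower. The start window of Eno3 also holds the end of the overlapping gene Pfn1, and both ASC libraries filled that window. Without FISC replicate 1 or without FISC replicate 2, the same 2 genes were the only ones of the 32 called at the starts, and 8 were called without ASC replicate 2. Over all genes the 2771 calls higher in ASC became 209 and 70 without FISC replicate 1 and 2.

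**Figure D1:**
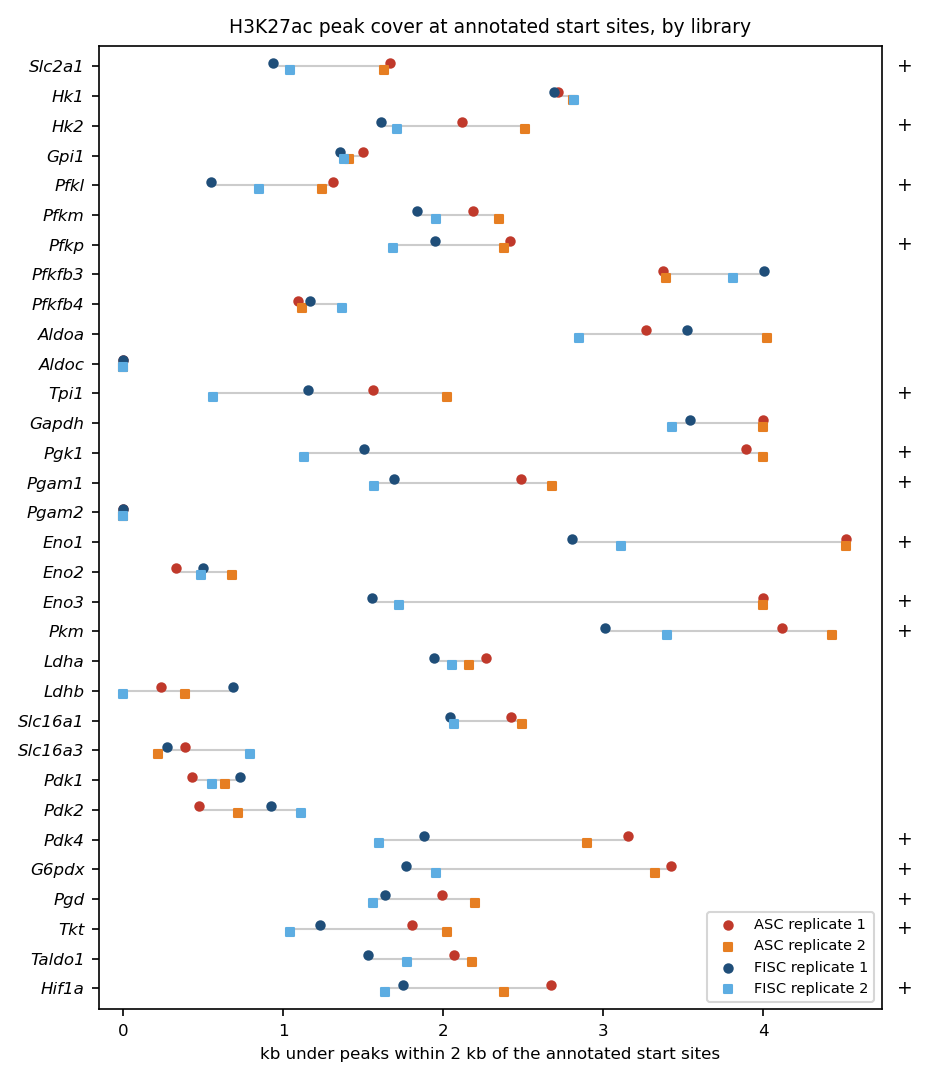
Kb under H3K27ac peaks within 2 kb of the annotated starts (x axis) for the 32 genes with an annotated start, 1 point per library, with a + at genes called higher in ASC. Both ASC points of Pgk1 and Eno3 lie at or near 4 kb and both FISC points under 2 kb, while the 4 points of Hk1 fall together. After division by total covered length Hk2, Pfkp, Eno1, Pkm, Pgd and Hif1a turn lower in ASC, as does Tpi1 with lists of equal covered length.

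Cover round the starts spread into the gene. For each gene the start with the most cover over all libraries was used, which 30 of the genes had. At the start itself 80.0 and 86.7% of the 30 genes were covered in ASC and 76.7 and 70.0% in FISC. At 1 kb downstream the shares were 76.7 and 73.3% in ASC and 53.3 and 43.3% in FISC. At 1.5 kb they were 53.3 and 56.7% against 23.3 and 26.7%. The conditions lay closer together at the start than inside the gene. Over 10713 genes chosen the same way, the shares at 1 kb downstream were 41.1 and 48.1% against 29.8 and 29.7%, and at 1.5 kb 17.8 and 21.8% against 11.5 and 10.9%. At these 2 distances the shares of the genes of glucose metabolism were above those of all genes in each library, and at 2.5 kb the FISC shares were below them. No test was made of these differences.

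**Figure D2:**
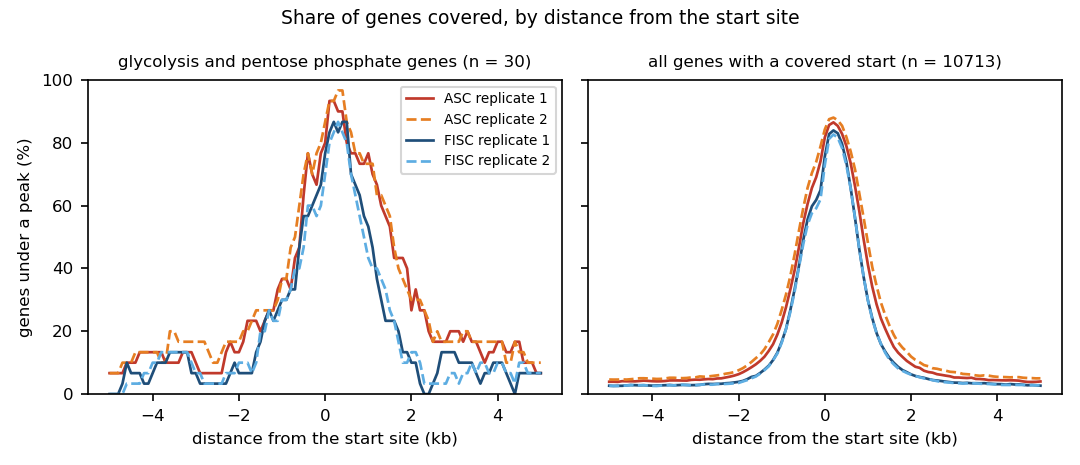
Share of genes under a peak (y axis, %) by distance from the start site along transcription (x axis, kb) in the 4 libraries, for 30 genes of glucose metabolism (left) and 10713 genes (right). Between 1 and 3 kb downstream of the start both ASC lines lie above both FISC lines in the left panel, and in the right panel they do so at all distances shown.

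The stretches upstream of 6 starts are shown, as RefSeq gives them on GRCm38.p6. Pgk1 and G6pdx were among the genes whose start cover differed most, Slc2a1 and Hk2 those with the longest gain inside the gene, Pdk4 that with the longest gain in its flanks, and Pgam2 had no cover at its start. Each run is the 250 bases before the start, 5′ to 3′ on the gene's strand, with letters of the searched motifs in capitals (ACGTG and GCGTG, cores of the hypoxia response element, the E-boxes CACGTG and CAGCTG, the GC box GGGCGG, the AP-1 site TGANTCA and the TATA box TATAAA, each on both strands). CACGTG holds ACGTG on each strand, so those matches overlap.
Pgk1, chrX:106186850-106187099, + strand: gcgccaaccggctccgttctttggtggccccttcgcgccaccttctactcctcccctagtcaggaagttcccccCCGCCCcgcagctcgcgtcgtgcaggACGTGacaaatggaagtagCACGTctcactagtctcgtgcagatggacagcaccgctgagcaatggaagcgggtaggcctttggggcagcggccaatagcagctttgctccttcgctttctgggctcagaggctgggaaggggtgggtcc
G6pdx, chrX:74428881-74429130, - strand: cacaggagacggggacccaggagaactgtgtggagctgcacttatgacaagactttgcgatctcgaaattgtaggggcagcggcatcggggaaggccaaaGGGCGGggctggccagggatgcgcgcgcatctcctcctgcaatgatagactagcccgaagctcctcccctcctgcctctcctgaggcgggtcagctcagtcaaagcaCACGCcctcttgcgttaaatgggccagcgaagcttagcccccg
Slc2a1, chr4:119108495-119108744, + strand: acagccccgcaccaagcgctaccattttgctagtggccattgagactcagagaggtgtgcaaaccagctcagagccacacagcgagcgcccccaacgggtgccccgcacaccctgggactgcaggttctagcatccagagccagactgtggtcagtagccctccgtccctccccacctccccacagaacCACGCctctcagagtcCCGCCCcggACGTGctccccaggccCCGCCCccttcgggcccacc
Hk2, chr6:82774455-82774704, - strand: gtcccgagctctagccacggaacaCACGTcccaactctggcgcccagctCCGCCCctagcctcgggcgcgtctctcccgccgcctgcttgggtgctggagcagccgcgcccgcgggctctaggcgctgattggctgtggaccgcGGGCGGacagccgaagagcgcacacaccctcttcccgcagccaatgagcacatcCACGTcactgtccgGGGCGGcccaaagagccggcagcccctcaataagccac
Pdk4, chr6:5496279-5496528, - strand: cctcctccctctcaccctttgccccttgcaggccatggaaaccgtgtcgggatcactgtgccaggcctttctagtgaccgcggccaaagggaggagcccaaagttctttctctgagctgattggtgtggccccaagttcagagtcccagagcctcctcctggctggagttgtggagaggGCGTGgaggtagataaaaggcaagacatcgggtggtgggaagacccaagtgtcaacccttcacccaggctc
Pgam2, chr11:5803797-5804046, - strand: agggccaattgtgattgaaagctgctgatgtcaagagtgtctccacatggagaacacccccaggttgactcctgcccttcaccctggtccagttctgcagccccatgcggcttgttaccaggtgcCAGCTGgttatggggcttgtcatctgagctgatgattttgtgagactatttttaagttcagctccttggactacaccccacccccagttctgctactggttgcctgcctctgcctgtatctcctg

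The 32 genes have 47 such stretches, some of which overlap. ACGTG stood in those of 13 genes and GCGTG in those of 21. Counted by stretch, 34% held ACGTG and 53.2% GCGTG, against 16.6% and 28.2% of all 32851 promoters. The GC box was in 48.9% against 32.7%, CACGTG in 12.8% against 6.02% and CAGCTG in 10.6% against 13.0%. The AP-1 site and the TATA box were each in 1 of 47 stretches (2.13%), against 6.75% and 12.4%. GC content moved with these shares, with a median of 59.6% in the 47 stretches and 52.4% in all promoters. A match is a run of letters and not a bound site. Pgk1, Hk2 and Slc2a1 carry ACGTG, G6pdx and Pdk4 carry GCGTG, and Pgam2, the muscle isozyme, carries neither but holds CAGCTG, the E-box that myogenic factors read.

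Among the glucose transporters, Slc2a1 gained cover at its start, in its body and in its flanks. It encodes the transporter that serves basal uptake in most cells (chr4:119108745-119137330). Its start had 1.67 and 1.63 kb under peaks in ASC and 0.935 and 1.04 kb in FISC, a difference of 0.660 ± 0.121 kb (SE; limma adjusted p = 0.0179). Its body, the stretch between the end windows, had 6.2 and 6.09 kb in ASC and 0.492 and 0.809 kb in FISC (difference 5.49 ± 0.277 kb, adjusted p = 0.00478). In its flanks, within 50 kb and outside the windows of other genes' ends, 1.93 and 2.78 kb in ASC stood against 0 and 0.200 kb in FISC (adjusted p = 0.00813). Groups did not overlap at any of these 3 places. Of the peaks behind these values, 8 regions were present in ASC libraries alone (both of them, with no peak in FISC). The edges nearest the gene of 4 of them lay 2.81 to 6.88 kb upstream of the start. Another 2 lay in the body, at chr4:119126145-119127169 and chr4:119133862-119135201. With the lists cut to equal covered length the difference in the body was 1.13 kb and did not pass.

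The other transporters differed less. Slc2a3, a transporter of high affinity typical of neurons, had 1.36 and 1.46 kb at its ends in ASC and 1.36 and 1.40 kb in FISC, and the groups overlapped. Its body had 2.95 and 3.76 kb against 3.01 and 3.12 kb, but 2 body regions were present in ASC libraries alone and 2 in FISC libraries alone. Slc2a4, the insulin-regulated transporter of muscle and fat, had 0.821 and 1.04 kb against 0.824 and 0.627 kb at its ends, and the groups overlapped. All of it lay at the gene end of higher coordinate, and the body had no cover. Neither gene passed a test at the ends, in the body or in the flanks.

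Hexokinases trap glucose as glucose phosphate. Hk2 was higher in ASC at its start and in its body, and Hk1 passed no test. The difference between them was tested only among the isozyme pairs below, where the exact permutation test allows no p under 0.333. Hk1 (chr10:62268855-62379920), the isozyme of most tissues, showed no cover at either gene end. Its cover lay in the body, with a peak at an annotated start 39.5 kb inside the gene, where the libraries had 2.72 and 2.81 kb in ASC and 2.69 and 2.82 kb in FISC. The 4 values overlapped, and the difference was 0.0110 ± 0.135 kb (limma adjusted p = 0.957). Its body, which includes that start, had 7.10 and 7.30 kb against 6.92 and 6.16 kb and did not pass either. After division by total covered length Hk1 was lower in ASC at the start (-1.26 kb) and in the body (-2.47 kb).

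Hk2 (chr6:82725025-82774454), the isozyme of muscle and of dividing cells, had 2.12 and 2.51 kb at its start in ASC and 1.61 and 1.71 kb in FISC (difference 0.656 ± 0.174 kb, limma adjusted p = 0.0432). That rise was small and turned to -0.238 kb after division by total covered length. In its body the libraries had 4.73 and 8.54 kb in ASC and 0.232 and 0 kb in FISC, a difference of 6.52 ± 1.41 kb (adjusted p = 0.0272). The ASC libraries differed widely from each other, and both lay above both FISC libraries. Most of the body cover fell in 6 regions present in both ASC libraries and in no FISC library. They lay between chr6:82748773 and chr6:82768879, the longest 1855 bases. ASC replicate 2 had further body peaks that ASC replicate 1 lacked, such as chr6:82740607-82740893 and chr6:82766908-82767547. Another of these, chr6:82751181-82751623, overlapped the body peak of FISC replicate 1. The body call was lost without FISC replicate 1 and without FISC replicate 2, with lists of equal covered length (1.42 kb) and with peaks of at least 5-fold enrichment. Gpi1, the isomerase of the next step, had 1.5 and 1.41 kb at its start against 1.36 and 1.38 kb and did not pass, while its flanks had 2.41 and 3.59 kb against 1.18 and 1.21 kb (adjusted p = 0.0334).

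**Figure D3:**
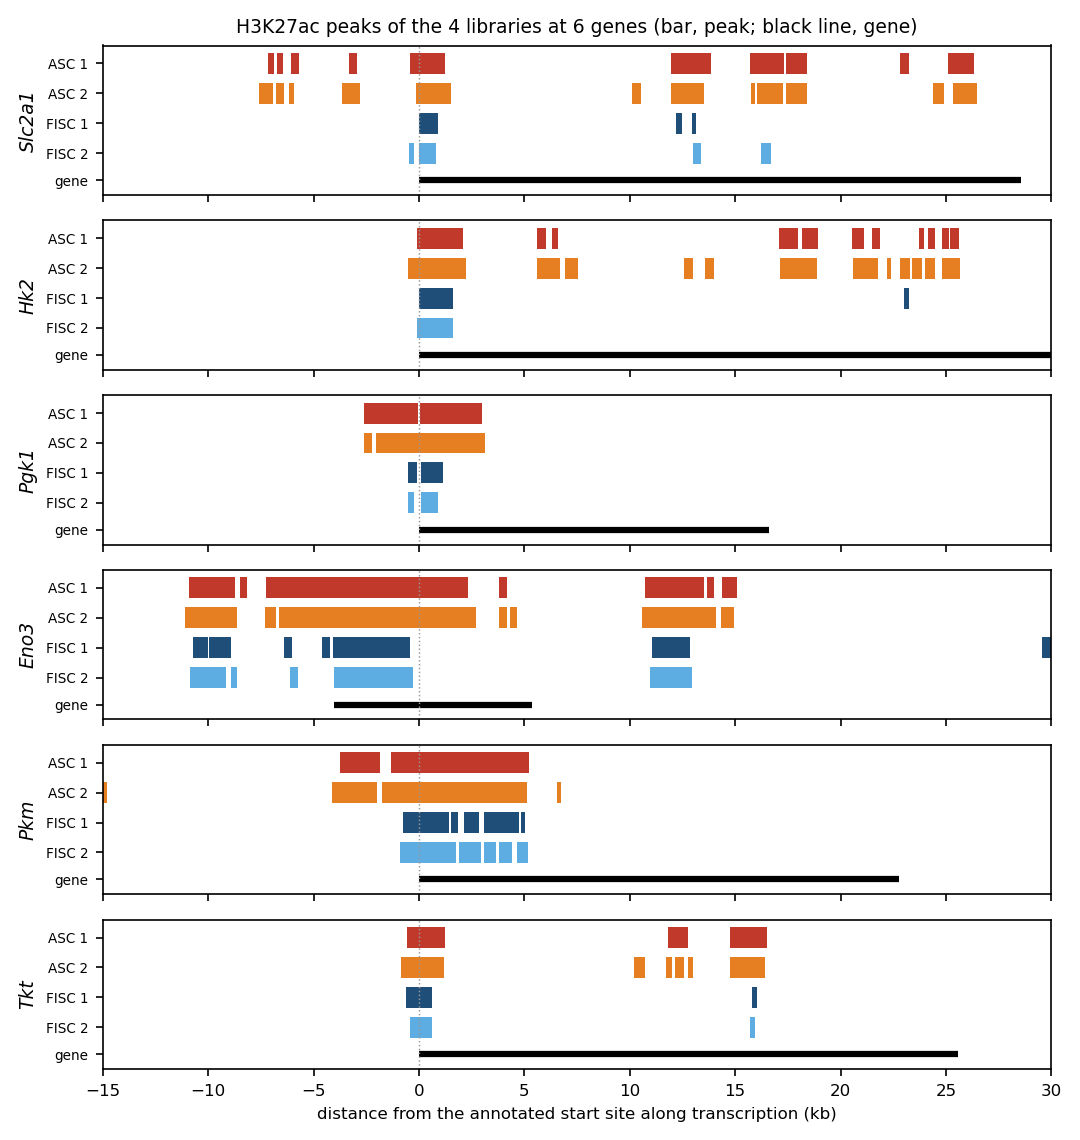
Peaks of the 4 libraries (coloured bars) at 6 genes by distance from the annotated start along transcription (x axis, kb), with the gene as a black line (Hk2 runs on beyond the panel). Slc2a1, Hk2 and Tkt show blocks inside the gene in ASC with little or none in FISC, Pgk1 shows longer peaks on both sides of its start in ASC, and at Eno3 the FISC peak stops short of the start. The Eno3 panel also takes in the overlapping gene Pfn1.

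Phosphofructokinase, the committed step of glycolysis, is built from the subunits of Pfkm (muscle), Pfkl (liver) and Pfkp (platelet). At the starts Pfkl had 1.31 and 1.24 kb in ASC and 0.550 and 0.848 kb in FISC, and Pfkp had 2.42 and 2.38 kb against 1.95 and 1.69 kb. Both passed (limma adjusted p = 0.0375 and 0.0381), and both calls were lost when any 1 of the 4 libraries was left out. After division by total covered length the Pfkp difference was -0.355 kb. Pfkm, with 4 annotated starts, had 2.2 and 2.35 kb against 1.84 and 1.96 kb and did not pass (adjusted p = 0.0925). Its 5'-most start carried most of this cover, in a window that also holds an end of Senp1, and no FISC peak there covered the Pfkm start itself, while the start 19.5 kb inside the gene carried none.

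The body of Pfkp had 12.0 and 11.9 kb in ASC and 7.79 and 7.35 kb in FISC (difference 4.38 ± 0.693 kb, limma adjusted p = 0.0133). A stretch of 7221 bases at chr13:6605694-6612914 was covered in all 4 libraries with 6.65 to 7.18 kb, and 3 further body regions were present in ASC libraries alone. The direction of the body difference depended on the lists: with lists of equal covered length it was -7.21 kb (adjusted p = 0.00486).

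Pfkfb3 and Pfkfb4 encode the enzymes that make and remove the allosteric activator of phosphofructokinase. Over its 2 starts Pfkfb3 had 3.37 and 3.39 kb in ASC and 4.01 and 3.81 kb in FISC, with ASC below FISC in both libraries (-0.527 ± 0.151 kb, limma adjusted p = 0.0524, not passing). Its flanks differed the other way, with 2.77 and 4.44 kb in ASC and 0.565 and 0.331 kb in FISC (adjusted p = 0.0158). Most of the ASC cover lay in 2 regions downstream, present in ASC libraries alone, at chr2:11457997-11459260 and chr2:11459490-11461803. With lists of equal covered length the flank difference was -0.448 kb (adjusted p = 0.0324). Pfkfb4 had 1.10 and 1.12 kb at its start against 1.17 and 1.37 kb. At the 5' end of its gene record, 3.63 kb upstream of that start, it had 0 and 0.222 kb in ASC and 0.559 and 1.73 kb in FISC, in a window that also holds an end of Ucn2. No test at Pfkfb4 passed.

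From aldolase to glyceraldehyde phosphate the genes are short, and their windows hold ends of other genes. Gapdh, the oxidising step (chr6:125161852-125166467), had 7.07 and 7.65 kb under peaks at its ends in ASC, close to the 8 kb possible, and 4.57 and 4.60 kb in FISC (difference 2.77 ± 0.302 kb, limma adjusted p = 0.00554). In ASC replicate 1 a single peak of 7682 bases ran over the whole gene. ASC replicate 2 had 4 peaks there, the longest 4780 bases, and the FISC libraries had 4 and 5, the longest 3728 and 1853 bases. At the start, with 4 and 4 kb against 3.54 and 3.43 kb, the ASC windows were full and the difference did not pass (adjusted p = 0.0503). The end windows of Gapdh hold ends of Iffo1 and Ncapd2, whose own cover cannot be separated from it, and the start window holds neither. Its end difference shrank to 0.152 kb after division by total covered length.

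Tpi1, which interconverts the triose phosphates, had 3.15 and 3.22 kb at its ends in ASC and 2.21 and 1.58 kb in FISC (adjusted p = 0.0199), in windows that also hold ends of Spsb2 and Usp5. At its start it had 1.57 and 2.03 kb against 1.16 and 0.560 kb (limma adjusted p = 0.0489), a call that 2 of 15 alternatives kept and that was -0.0755 kb with lists of equal covered length. Its start window holds the end of Usp5. Aldoa, the aldolase of muscle and most cells, had 3.27 and 4.02 kb over its 3 starts in ASC and 3.53 and 2.85 kb in FISC, and the groups overlapped. Aldoc, the aldolase of brain, had no cover at either annotated start in any library. The cover at its far end, between 1.01 and 1.23 kb in the 4 libraries, lies in a window that also holds an end of Pigs. The flanks of Aldoc had 3.22 and 2.88 kb in ASC and 1.19 and 1.47 kb in FISC (adjusted p = 0.0114), a call lost without FISC replicate 1.

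Lower glycolysis held the largest differences at the starts, and 5 of its 7 genes were higher there. Of all genes tested at their starts 26.9% were called higher, and 7 genes are few for a comparison with that share. Pgk1, which makes the first ATP of the pathway (chrX:106187100-106203699), had 3.90 and 4 kb at its start in ASC and 1.51 and 1.13 kb in FISC, means of 3.95 ± 0.0735 and 1.32 ± 0.266 kb (SD, n = 2). The ASC values were 2.99 times the FISC values and filled or nearly filled the window, which limits their spread. The difference of 2.63 ± 0.174 kb passed (limma adjusted p = 0.00217) and kept its call in 15 of 15 alternatives at the start. In FISC short peaks of 448 and 1059 bases (replicate 1) and 311 and 820 bases (replicate 2) lay on each side of the start. In ASC replicate 1 these places held peaks of 2525 and 2958 bases, and in ASC replicate 2 a single peak of 5206 bases crossed the start. Further into the gene, the body had 0.994 and 1.14 kb in ASC and 0 kb in both FISC libraries. A region 36.2 kb upstream, chrX:106148912-106150865, was present in ASC libraries alone.

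Eno3, the enolase of muscle (gene record chr11:70653125-70662513), had 4 and 4 kb at its annotated start in ASC and 1.56 and 1.73 kb in FISC (difference 2.36 ± 0.137 kb, limma adjusted p = 0.00187). Both ASC libraries filled the window, so their SD of 0 comes from its limit, and the SE and p may understate the spread. The annotated start is 4.05 kb inside the gene record. In FISC a peak of 3621 or 3763 bases began at the gene's 5' end and stopped before the start, so that neither FISC library covered the start itself. In ASC peaks of 9578 and 9320 bases spanned the 5' end, the start and more than 2 kb beyond. The call held in 15 of 15 alternatives at the start. Those without a FISC library take their spread within a group from the full ASC windows alone. The body had 4.37 and 4.74 kb in ASC and 1.61 and 1.78 kb in FISC (adjusted p = 0.00558), a call lost without FISC replicate 1. Pfn1, the gene of the actin-binding protein profilin (chr11:70651844-70656799), overlaps the 5' part of the Eno3 record and ends 377 bases before the Eno3 start. The cover at the start, in the body and at the ends of Eno3 can therefore not be told apart from that of Pfn1, and the ends also take in Rnf167 and Spag7. Most of the FISC peak lies within the stretch that both genes share.

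Eno1, the enolase of most tissues, had 4.52 and 4.52 kb over its 3 starts in ASC and 2.80 and 3.11 kb in FISC (difference 1.56 ± 0.170 kb, limma adjusted p = 0.00514). Both ASC libraries filled its windows, so the spread between them could not be measured there. Peaks over the gene's start were 5635 and 6495 bases long in ASC and 2034 and 2101 bases in FISC. Its body (1.61 and 2.12 kb against 0.340 and 0.264 kb) and flanks (4.47 and 4.62 kb against 2.50 and 2.33 kb) passed as well (adjusted p = 0.0118 and 0.00967), but the flank difference was -0.465 kb with lists of equal covered length. Divided by total covered length, the difference at the starts was -0.0802 kb, while that of the body stayed higher at 1.13 kb. Eno2, the neuronal enolase, had 0.332 and 0.682 kb at its start in ASC and 0.499 and 0.485 kb in FISC, and the groups overlapped.

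Pkm, pyruvate kinase of muscle and dividing cells, had 4.12 and 4.43 kb over its 2 starts in ASC and 3.01 and 3.40 kb in FISC (difference 1.07 ± 0.208 kb, limma adjusted p = 0.0204). The sign turned after division by total covered length (-0.608 kb). A region just upstream, chr9:59652431-59654704, held 1.86 and 2.14 kb in ASC and no peak in FISC. The flanks of Pkm, which hold most of that region, had 3.30 and 5.38 kb in ASC and 0.944 and 0.995 kb in FISC (adjusted p = 0.0221), and they also passed after division by total covered length and with lists of equal covered length. Pgam1, the phosphoglycerate mutase of most tissues, had 2.49 and 2.68 kb at its start against 1.70 and 1.57 kb (adjusted p = 0.00995). Pgam2, its muscle counterpart, was covered at neither end in any library, and its flanks had 1.34 and 2.03 kb in ASC and 0 kb in FISC, a gene that entered the test through ASC cover alone.

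The genes of lactate changed little at their starts. Ldha, which turns pyruvate into lactate, has gene ends that no library covered, and its annotated starts lie 3.53 and 4.81 kb inside the gene record (chr7:46842274-46855627). There 1 peak per library covered 2.27 and 2.16 kb in ASC and 1.94 and 2.06 kb in FISC. The ASC values lay above the FISC values by 0.214 ± 0.130 kb, which did not pass (limma adjusted p = 0.249), and the sign turned after division by total covered length (-0.742 kb). The 250 bases before its first start hold 5 matches of ACGTG over both strands, in part within 2 copies of CACGTG. Ldhb, the heart-type subunit, had at most 0.687 kb at its start in any library and 0 kb in FISC replicate 2. Its flanks had 0.842 and 1.52 kb in ASC and 0 kb in FISC, and likewise entered the test through ASC alone.

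Neither lactate carrier passed at its start, while Slc16a1 was called higher in its flanks and Slc16a3 lower in its body. Slc16a1, the monocarboxylate transporter of most cells, had 2.42 and 2.49 kb at its start in ASC and 2.04 and 2.07 kb in FISC (limma adjusted p = 0.0622, not passing). Its flanks had 3.81 and 5.91 kb against 1.81 and 0.835 kb (adjusted p = 0.0258), with 4 regions in ASC libraries alone and 1 in FISC libraries alone. With lists of equal covered length that flank difference was -0.979 kb. Slc16a3, the exporter of strongly glycolytic cells, had 0 kb in its body in both ASC libraries and 0.273 and 0.318 kb in FISC. It entered the test through FISC cover alone, and its call was lost without the filter on cover and when any 1 of the 4 libraries was left out. Of the regions at Slc16a3, 4 were present in FISC libraries alone and 1 in ASC libraries alone.

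The pyruvate dehydrogenase kinases, which hold pyruvate back from the mitochondrial oxidation, split. Pdk4, the kinase linked to fasting and fatty acid use, had 3.16 and 2.90 kb at its start in ASC and 1.88 and 1.60 kb in FISC (difference 1.29 ± 0.170 kb, limma adjusted p = 0.00758). Its flanks differed most of all 29 genes tested there, with 7.66 and 9.68 kb in ASC and 1.09 and 1.75 kb in FISC (difference 7.25 ± 0.852 kb, adjusted p = 0.00454). Most of this lay in 1 stretch 38.7 kb downstream of the gene, chr6:5438178-5444668, which had 5.89 and 6.49 kb in ASC and 1.09 and 0.937 kb in FISC. Beside it chr6:5444742-5446558 was present in ASC libraries alone. Both lie beyond 20 kb, and with flanks of 20 kb Pdk4 was not called.

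Pdk2, the kinase found in most tissues, was the 1 gene called lower at its ends, with 0.477 and 0.720 kb in ASC and 1.20 and 1.11 kb in FISC (-0.554 ± 0.129 kb, limma adjusted p = 0.034). At its starts, without the far end, the same direction did not pass (-0.420 kb, adjusted p = 0.0748). A region of 296 bases just upstream, chr11:95041749-95042044, was present in FISC libraries alone. The far end window, at the 3' end, also holds an end of Samd14. The call at the ends was kept after division by total covered length (-0.995 kb) and with lists of equal covered length (-1.15 kb). Both steps lower ASC values relative to FISC, so neither tests a fall in ASC. The call was lost without ASC replicate 1, without FISC replicate 1 and without FISC replicate 2. It was also lost with peaks of -log10 q or fold of at least 5, without the filter on cover and with windows of 1 kb. Using only the end of more cover or the replicate block lost it too. Pdk1, the kinase that Hif1a is known to raise, had 0.431 and 0.634 kb at its starts in ASC and 0.732 and 0.557 kb in FISC, and the groups overlapped.

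All 4 pentose phosphate genes had more cover at their starts in ASC, without overlap between the groups, and 3 passed. Among all genes tested at their starts 62.4% were apart in this direction and 26.9% were called higher. With 4 genes this count is not a result about the branch. G6pdx, the rate-setting enzyme of the branch (chrX:74409483-74428880), had 3.42 and 3.32 kb in ASC and 1.77 and 1.96 kb in FISC (difference 1.51 ± 0.141 kb, limma adjusted p = 0.00388), and its body had 2.73 and 3.03 kb against 1.5 and 1.3 kb (adjusted p = 0.0138). Pgd, which makes the second NADPH of the branch, had 2.00 and 2.20 kb against 1.63 and 1.56 kb (adjusted p = 0.0473), a difference that turned to -0.331 kb after division by total covered length. Tkt, transketolase, had 1.80 and 2.02 kb against 1.23 and 1.04 kb (adjusted p = 0.0194). Taldo1, transaldolase, had 2.07 and 2.18 kb against 1.53 and 1.78 kb and did not pass (adjusted p = 0.0638), and its difference too was below 0 after that division (-0.380 kb).

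Away from the starts, Tkt differed in its body and Pgd in its flanks. The body of Tkt (chr14:30549131-30574724) had 2.70 and 3.08 kb in ASC and 0.206 and 0.200 kb in FISC (difference 2.69 ± 0.224 kb, limma adjusted p = 0.0049). Its main block, chr14:30563865-30565641, had 1.78 and 1.63 kb in ASC and 0.206 and 0.200 kb in FISC, and chr14:30560858-30561873 was present in ASC libraries alone. The flanks of Pgd had 3.16 and 3.0 kb in ASC and 0 and 0.354 kb in FISC (difference 2.90 ± 0.261 kb, adjusted p = 0.00334). That cover lay upstream of the gene, at chr4:149169830-149171734 and, in ASC libraries alone, at chr4:149171842-149173119. With lists of equal covered length the Tkt body difference was 0.685 kb and did not pass, whereas the Pgd flanks passed (1.65 kb).

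Hif1a had 1 annotated start, 6.54 kb inside its gene record (chr12:73901324-73947554), so its gene ends were nearly bare. The start had 2.67 and 2.38 kb in ASC and 1.75 and 1.64 kb in FISC (difference 0.832 ± 0.155 kb, limma adjusted p = 0.0186). The sign turned after division by total covered length (-0.0838 kb). A region 8.77 kb beyond the gene, chr12:73956323-73957007, was present in ASC libraries alone.

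Over the gene bodies 20 of the 34 genes could be tested, of which 2 passed the filter through ASC cover alone and Slc16a3 through FISC alone, and 9 were higher in ASC and 1, Slc16a3, lower. Among 6528 genes 42.8% were called higher and 9.73% lower, so the 45.0% of these genes called higher is near the background. The median difference was 0.746 kb over the 20 genes and 0.526 kb over all genes. Fewer genes were called higher without FISC replicate 1 or without FISC replicate 2, both among these genes and over all genes. In the flanks 29 genes could be tested, and 14 were higher and 0 lower, against 47.9% and 8.74% of 13091 genes. At 48.3% the share is again near the background, and 5 of the 29 genes passed the filter through ASC cover alone. The median difference in the flanks was 1.03 kb over the 29 genes and 0.713 kb over all genes. The FISC medians there were 1.18 and 1.21 kb against 0.838 and 0.773 kb.

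**Figure D4:**
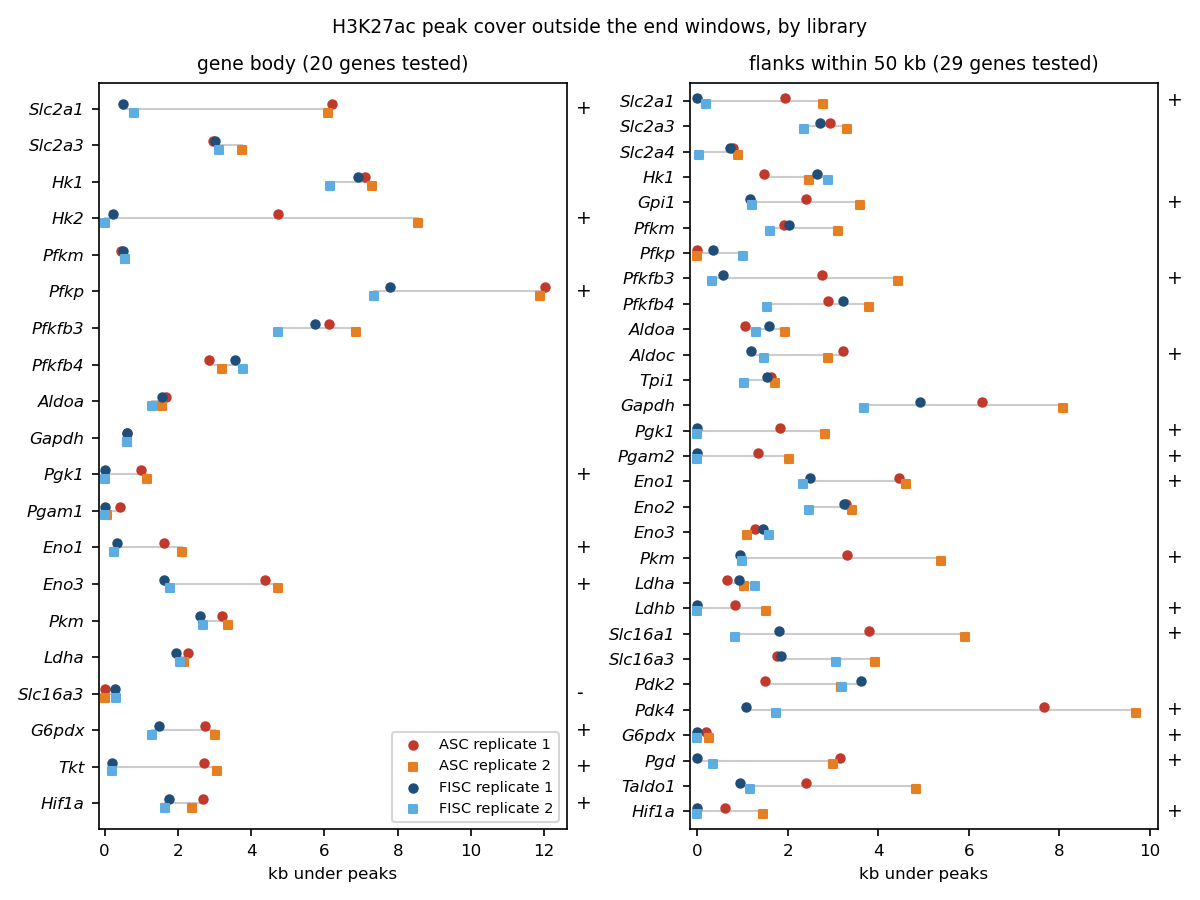
Kb under H3K27ac peaks in the gene body (left, 20 genes) and in the flanks within 50 kb (right, 29 genes) (x axes), 1 point per library, with a + at genes called higher and a - at the gene called lower in ASC. The largest differences are those of Hk2 and Slc2a1 in the body and of Pdk4 in the flanks. With lists of equal covered length Pfkp (body) and Pfkfb3, Eno1 and Slc16a1 (flanks) turn lower in ASC, as does Hif1a (body) after division by total covered length.

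Peaks of the 4 libraries that overlapped by at least 1 base were joined into regions, of which 334 lay at the 34 genes or within 50 kb of them. Of these, 133 were present in all 4 libraries, 64 (19.2%) in ASC libraries alone and 17 (5.09%) in FISC libraries alone, in each case in both replicates. Over the genome 19.9% and 7.30% of 72585 regions had these patterns. Regions present in all 4 libraries made up 39.8% near these genes and 26.9% over the genome. By place, ASC libraries alone held 5 of 59 regions at ends or starts, 16 of 56 in gene bodies and 43 of 223 in flanks. FISC libraries alone held 3, 4 and 10. The split turns with the lists: at equal covered length 5 regions were in ASC libraries alone and 51 in FISC libraries alone, when the ASC lists were down to 18090 and 14488 peaks and the FISC lists still held 42792 and 43092. Leaving out a library loosens the rule, since a region then needs fewer libraries of its own group or must be absent from fewer of the other. The counts rise for that reason, to 128 and 98 in ASC alone when the first or the second ASC library was left out. They do not show how stable the split is, and no genome share under the looser rule is given. In FISC alone the count became 26 without ASC replicate 2, 36 without FISC replicate 1 and 43 without FISC replicate 2.

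Isozymes were set against each other by the difference of their cover at the gene ends in the same library, for 18 pairs. Windows were of equal length except at Pgam2, a gene of 2.16 kb whose end windows overlap. In 14 pairs the ASC and FISC differences did not overlap. Each had the smallest exact 2-sided permutation p that 2 libraries against 2 allow (0.333, 0.429 after Benjamini-Hochberg adjustment). Among single genes the groups were apart at the ends of 9446 of 12924. Pairs of other genes were not counted, and several pairs share a gene, so the count is not a result about isozymes. In ASC the windows at the 5' ends of Eno1 and Eno3 were both full, so that the order of these isozymes there cannot be read. Pdk2 minus Pdk4 was -0.684 and -0.489 kb in FISC and -2.68 and -2.38 kb in ASC. Slc2a1 minus Slc2a3 went from -0.427 and -0.356 kb in FISC to 0.312 and 0.169 kb in ASC. Pfkl minus Pfkp overlapped between the conditions, with -1.19 and -0.811 kb in FISC and -0.852 and -0.883 kb in ASC. At the annotated starts 11 of 15 pairs were apart, and among single genes 7470 of 10294.

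Of 86 further genes of sugar metabolism that are not among the 34, 73 were tested at their ends, and 18 were higher in ASC and 4 lower, with a median difference of 0.290 kb. These are near the 26.5% higher, 3.61% lower and 0.304 kb of all genes. The largest rises were those of H6pd, the microsomal counterpart of G6pdx (6.12 and 6.51 kb in ASC, 4.11 and 4.26 kb in FISC), and Gys1, muscle glycogen synthase (3.52 and 4.18 kb against 2.20 and 1.69 kb). Pdhb, a subunit of pyruvate dehydrogenase, had 3.25 and 2.80 kb against 1.45 and 1.25 kb, and Akr1b3, aldose reductase, had 4.38 and 4.84 kb against 3.05 and 3.09 kb. After division by total covered length H6pd and Akr1b3 were lower in ASC (-0.188 and -0.158 kb). The 4 that fell were Slc2a12, a glucose transporter (1.60 and 1.74 kb in ASC, 3.1 and 3.22 kb in FISC), Galt of galactose use (0.875 and 1.29 kb against 2.13 and 2.09 kb), Txnip, an inhibitor of glucose uptake (1.88 and 1.91 kb against 2.81 and 2.44 kb), and Hif3a, a relative of Hif1a known to oppose it (0 kb in ASC, 0.396 and 0.349 kb in FISC, so that it passed the filter through FISC alone). These 4 were also lower after division by total covered length and with lists of equal covered length. Both steps lower ASC values relative to FISC, so neither tests these falls.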

How the data were processed

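H3K27ac was mapped by ChIPmentation, in which antibody-bound chromatin is tagmented, per the labels' protocols. The submitters' processing notes name bcl2fastq 2.19, BWA, Picard and MACS2 and the build mm10. Not given in the sources used here are other versions, settings, the handling of duplicates and the use of the 4 inputs, and read depth is unknown. The 4 deposited peak lists, 1 per library, give fold enrichment as a ratio, −log10 p and −log10 q values, and a score, in the format that MACS2 writes. Only the positions were used here, with the deposited fold and −log10 q as cut-offs in alternatives.

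Genes came from RefSeq (GRCm38.p6, the assembly of mm10) and starts from its promoter table (17492 genes with a start). Kb under peaks were fitted on the linear scale with limma 3.58.1 in R 4.3.3 (eBayes with trend) for genes covered in at least 2 of 4 libraries, with Benjamini-Hochberg adjustment over all genes and a threshold of 0.05. The fit was first run on simulated data without empty or full windows, so it was not tested for such genes. Python 3.11.15 counted the bases. Alternatives changed the scaling, the lists, the windows, the filter and the libraries used. All 34 genes could be named, with the 4 largest calls in each direction among 86 related genes, 39 markers and genes that share a window; Pfn1's place inside Eno3 was noted after the values were seen. The members, lists and rules were chosen with earlier results of these data known, and the start windows were added after the files were seen. Values of some markers are not reported here.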

Additional observations from a re-analysis of the deposited data

How the results depend on the processing

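After division by total covered length, 2 of the 34 genes were called higher and 10 lower at the ends (12 and 1 as reported). The counts were 2 and 11 at the starts (15 and 0), 4 lower in the body (1) and 3 lower in the flanks (0). Among all genes this division gave 1188 higher and 4735 lower of 12924 at the ends, and 738 and 4076 of 10294 at the starts. In the body 1335 of 6528 genes were lower, and in the flanks 2563 of 13091. With lists of equal covered length the calls were 8 higher and 1 lower at the ends, and 10 higher and 3 lower at the starts. They were 5 higher and 4 lower in the body, and 4 higher and 7 lower in the flanks. All genes had 1908 higher and 1578 lower of 12102 at the ends, and 1658 and 1196 of 9746 at the starts. They had 991 and 1598 of 5062 in the body, and 1975 and 3305 of 10379 in the flanks. Without the filter on cover, 6 and 0 remained at the ends, 5 higher at the starts, 0 lower in the body and 5 higher in the flanks. All genes then had 1245 and 167 of 21887 at the ends and 901 higher of 17492 at the starts. They had 696 lower of 17675 in the body and 3985 higher of 21887 in the flanks. Windows of 1 kb gave 5 and 0 at the ends, 6 and 1 at the starts and 14 higher in the body. For all genes these were 1912 and 226 of 12349, 1476 and 167 of 10134, and 3339 of 9831. Windows of 5 kb gave 2 lower at the ends, 4 and 0 in the body and 1 lower in the flanks. For all genes these were 652 of 13924, 2324 and 543 of 4912, and 1127 of 10770. None of these genes was lower at the ends with -log10 q or fold of at least 5 or with only the end with more cover (0 each). Nor was any lower in the body with fold of at least 5 (0). Of all genes 378 of 12340, 282 of 11822 and 457 of 12905 were lower at the ends there, and 261 of 4904 in the body. Equal peak number gave 2 lower in the body and 1 at the starts, and joined peaks 1 lower at the starts. Fold of at least 5, the log2 scale and flanks of 20 kb gave 1 lower in the flanks each. Over all genes equal peak number gave 738 of 6234 lower in the body and 412 of 10179 at the starts, and joined peaks 279 of 10294. In the flanks 555 of 10359, 1150 of 13091 and 756 of 8011 of all genes were lower in those settings, in that order. Flanks of 100 kb gave 22 higher, against 8410 of 16258 of all genes. When a FISC library was left out, fewer of all genes were called higher at each place as well. Leaving out 1 library gave 4 to 14 higher and 0 to 2 lower at the ends, 2 to 13 higher at the starts, 3 to 7 higher and 0 lower in the body, and 10 to 14 higher and 0 to 2 lower in the flanks. Regions in ASC alone (64) numbered 5 at equal covered length and 70 to 128 with 1 library left out. Those in FISC alone (17) numbered 51, 8 with -log10 q of at least 5, and 19 to 43. With a library left out the rule is looser, which by itself raises these counts.

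Replicate numbers are shared between the conditions, but same-numbered libraries did not deviate together (r = -0.0231 at the ends, 0.0587 in the body, -0.0707 in the flanks, -0.0258 at the starts). With the replicate number as a block, 12 and 1 genes were called at the ends (the 1 lower was Pfkfb4, not Pdk2) and 12 and 0 at the starts. In the body 8 and 1 were called, and in the flanks 15 and 1. Among all genes the block gave 3001 and 432 of 12924, 2420 and 307 of 10294, 2746 and 593 of 6528, and 6649 and 1264 of 13091.

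In 32 cases a value that passed the threshold in at least 1 of the 2 fits turned its sign, and values that passed in neither are not listed. After division by total covered length these were at the ends Slc16a1 (-0.617 kb), Eno1 (-0.334), Slc2a3 (-0.617), Gpi1 (-0.556) and Pkm (-0.379). In the body they were Hk1 (-2.47), Hif1a (-0.0838) and Slc2a3 (-1.20). At the starts they were Hk1 (-1.26), Hif1a (-0.0838), Pfkp (-0.355), Pfkm (-0.573), Slc16a1 (-0.617), Pgd (-0.331), Eno1 (-0.0803), Hk2 (-0.238), Gapdh (-1.18), Gpi1 (-0.556), Ldha (-0.742), Aldoa (-1.11) and Pkm (-0.608). With lists of equal covered length they were Pfkp in the body (-7.21), Slc16a3 (-2.16), Pfkfb3 (-0.448), Slc16a1 (-0.979) and Eno1 (-0.465) in the flanks, and Eno2 (-0.492) and Tpi1 (-0.0755) at the starts. The flank of Eno3 was 1.66 kb with 1 kb windows, 0.665 with 20 kb and 7.22 with 100 kb of flank, and that of Ldha 3.36 with 100 kb. The cause was not tested. Isozyme pairs apart numbered 10, 15 and 12 of 18 after division, at equal covered length and with -log10 q of at least 5. Pairs of other genes were not counted there either. Without reads, a shorter peak cannot be told from a shallower library.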
